A study of Homo sapiens with 8 samples.

Results

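The mitochondrial solute carriers of the SLC25 family were described here by their binding to AGO2 in A431 cells that had received *miR-634* or the control *miR-NC*. The members were all genes whose symbol is SLC25A followed by a number. The RefSeq gene table held 48 such symbols, of which 46 had a probe on the array. Of these, 37 were measured, among 13664 measured genes in all. To be measured, a gene needed a probe well above background on the 4 input arrays, and the brightest of its passing probes was used. The 9 members with a probe that did not pass were SLC25A2, SLC25A26, SLC25A27, SLC25A31, SLC25A34, SLC25A35, SLC25A41, SLC25A48 and SLC25A53, and SLC25A18 and SLC25A52 had no matched probe.

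A431 is an established human cSCC cell line. All cells were transfected with a double-stranded RNA at 10 nM and were lysed 24 h later, the control cells with *miR-NC*, a negative control RNA, and the others with *miR-634*. RNA bound to AGO2, the protein of the RNA-induced silencing complex that holds the microRNA, was isolated by RIP with an AGO2 antibody, and the total RNA of the cells was the input. Input and RIP of the *miR-NC* cells and input and RIP of the *miR-634* cells made 4 groups, each measured on 2 one-color Agilent arrays. The sample labels name a normal rabbit IgG antibody for the input arrays, whereas the methods describe total RNA, and they were used here as input. Neither source says whether the 2 arrays of a group came from separate cultures, so the p-values measure the spread between these arrays, which may be technical. Markers of squamous epithelium were measured for 6 of 6 genes, including EGFR, KRT5 and TP63, whereas 0 of 3 leukocyte, 0 of 3 fibroblast and 1 of 2 endothelial markers (VWF) passed.

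SLC25 proteins span a membrane, mostly the inner mitochondrial membrane, and exchange nucleotides, amino acids, carboxylates, phosphate, cofactors and metal ions between the cytosol and the matrix. They are encoded in the nucleus and are inserted by the TIM22 carrier translocase. Several substrates have more than 1 carrier, and these paralogs differ in the tissues and conditions in which they are used. A microRNA leads AGO2 to transcripts that pair with its seed, and RIP enrichment reads how much of a transcript is held by AGO2 with any microRNA of the cell.

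The mature *miR-634* sequence of RefSeq (GRCh38.p14, chr17:66787132-66787153, plus strand) is shown because its seed defines the pairing, with the seed, bases 2 to 8, in capitals. A transcript pairs with this seed through UGCUGGU. Sites in the carrier transcripts were not analysed here.
hsa-miR-634: aACCAGCAccccaacuuuggac

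Levels are log2 intensities relative to the 75th percentile of their own array, and levels of different genes are not comparable, because each comes from its own probe. RIP/input is the difference between the RIP and the input level in 1 kind of cell. The fold change of enrichment is RIP/input in *miR-634* cells minus RIP/input in *miR-NC* cells, on the log2 scale. A change was called at an adjusted p under 0.05 (limma on the 4 group means, Benjamini-Hochberg over all 13664 genes). On the input arrays, 45.6% to 45.8% of probe spots were well above background, against 33.6% and 34.5% for *miR-NC* RIP and 40.0% for both arrays of *miR-634* RIP, and the part of this difference in the results was not tested. The median SD of the members' levels within a group was between 0.03 and 0.06 (n = 2 arrays each). SLC25A30 had the widest spread, with an SD of 0.56 in *miR-NC* RIP and 0.40 in *miR-634* RIP. With so few arrays, their number sets the precision.

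AGO2 enrichment differed between *miR-634* and *miR-NC* cells for 21 of the 37 carriers, in both directions. Enrichment rose for 12 members, or 32.4%, while 24.8% of all genes rose. It fell for 9 members, or 24.3%, while 34.7% of all genes fell, and these falls were relative to the array's 75th percentile, since all 9 values were above 0 when the arrays were scaled on their spike-in probes. The rise was at least 2-fold for 9 members, or 24.3%, against 12.8% of all genes. No member fell by 2-fold or more, against 7.85% of all genes. The median fold change of enrichment of the members was 0.13 (log2), and that of all genes was -0.18, with 23 of 37 members above the latter. Under spike-in scaling the 2 medians were 1.21 and 0.91, again with 23 members above, and 28 members were called higher and 0 lower. All 21 called members moved the same way in both array numbers, which a call with 2 arrays per group largely requires.

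**Figure D1:**
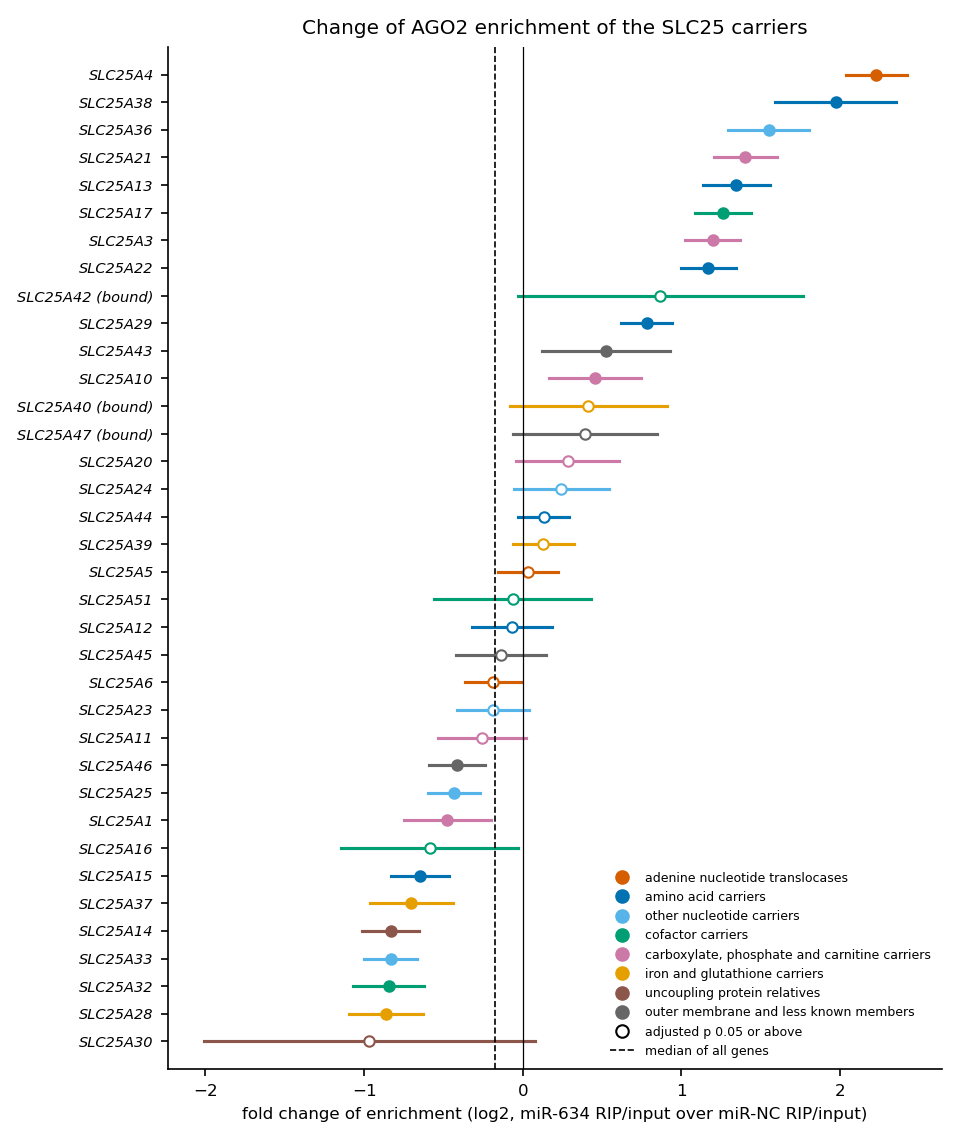
Fold change of enrichment (x axis, log2) of 36 of the 37 measured SLC25 members, sorted by value, with 95% intervals from limma and colored by the role of the carrier. Filled points had an adjusted p under 0.05, and "bound" marks members not well above background on either miR-NC RIP array. Values run from -0.97 (SLC25A30, not called) to 2.23 (SLC25A4), the dashed line is the median of all genes, -0.18, and under spike-in scaling all 9 falls lie above 0.

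The adenine nucleotide translocases, which exchange cytosolic ADP for matrix ATP, moved unequally, with 1 of 3 measured members called higher and 2 not called. Over all genes, 24.8% were called higher and 34.7% lower. SLC25A4 (ANT1, the main form of heart and muscle) was at -1.13 and -1.11 on the *miR-NC* input arrays and at -1.02 and -1.08 on the *miR-634* input arrays. In the RIP, its level was -1.62 and -1.67 with *miR-NC* and 0.60 and 0.70 with *miR-634*. The input groups thus lay close together, while the RIP arrays of the *miR-634* cells stood far above those of the *miR-NC* cells. RIP/input was -0.53 with *miR-NC* and 1.70 with *miR-634*, both called, so that SLC25A4 passed from under-represented to over-represented in the RIP. The fold change of enrichment was 2.23 (SE 0.08, adjusted p = 1.44e-05), the largest among the members and at the 97.2nd percentile of all genes.

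SLC25A5 (ANT2, the form of proliferating cells) did not share this pattern. It was at 4.34 and 4.39 in *miR-NC* input, 4.35 and 4.41 in *miR-634* input, 3.62 and 3.58 in *miR-NC* RIP and 3.70 and 3.61 in *miR-634* RIP. SLC25A6 (ANT3, expressed in most tissues) was at 4.04 on both *miR-NC* input arrays, 4.16 and 4.22 in *miR-634* input, 3.80 and 3.82 in *miR-NC* RIP and 3.82 and 3.74 in *miR-634* RIP. For both genes, all RIP levels were below all input levels, and the 2 RIP groups overlapped. Neither change of enrichment was called, at 0.03 for SLC25A5 (95% interval -0.16 to 0.22, adjusted p = 0.75) and -0.19 for SLC25A6 (95% interval -0.36 to -0.01, adjusted p = 0.0663), against an interval of 2.04 to 2.42 for SLC25A4. The difference between the paralogs was not itself tested. When probes had to be well above background on all 8 arrays, the value of SLC25A6 was the same -0.19 and was called lower, and its dimmer probe gave 0.11. SLC25A4, SLC25A5 and SLC25A6 have closely similar sequences and many processed pseudogenes, so signal shared between them could not be told apart by the probe names. SLC25A31, the form of the testis, was not well above background on any array.

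**Figure D2:**
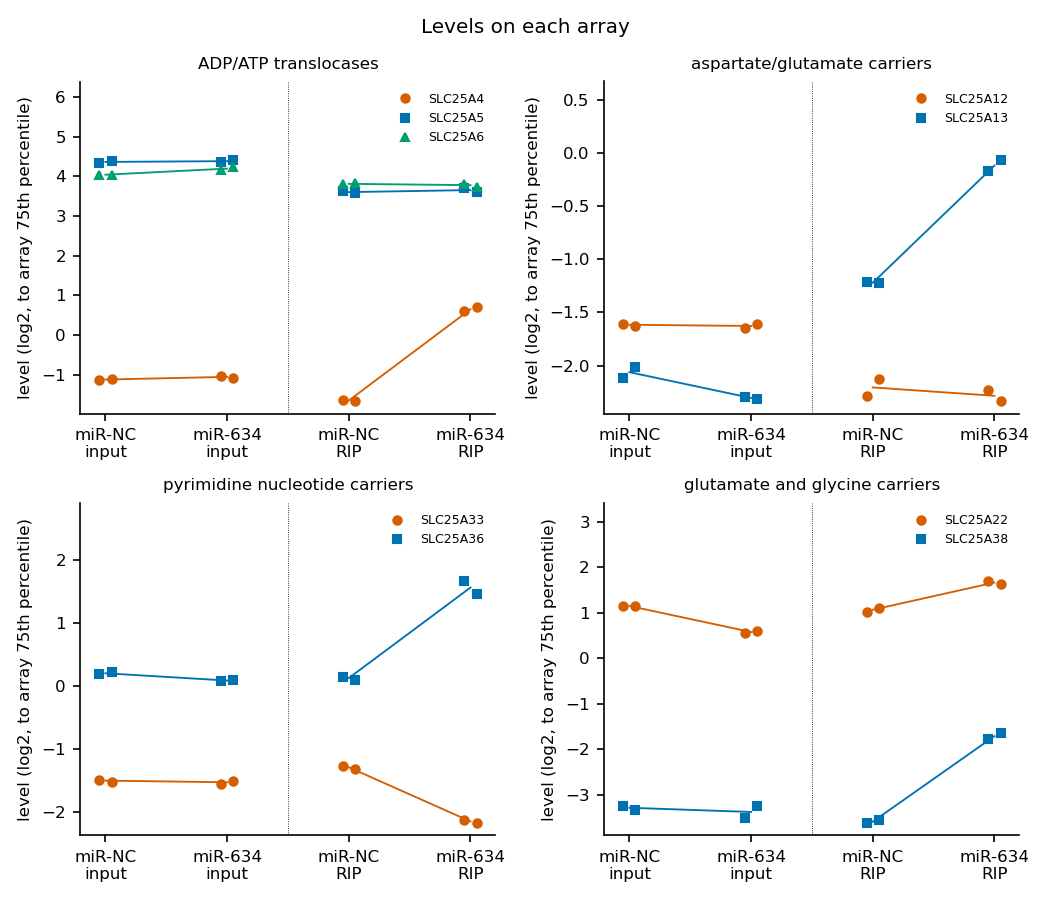
Levels (y axis, log2 relative to the array's 75th percentile) on each of the 8 arrays for 4 sets of carriers, with 2 points per group and lines joining the group means within input and within RIP. In the RIP, SLC25A4, SLC25A13, SLC25A36, SLC25A22 and SLC25A38 were higher in miR-634 cells on both arrays, SLC25A5, SLC25A6 and SLC25A12 overlapped, and SLC25A33 was lower relative to the array's percentile (its enrichment change was above 0 under spike-in scaling). Heights of different genes are not comparable.

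Of the 7 measured carriers of amino acids, 4 were called higher, 1 lower and 2 not called, while 24.8% of all genes rose and 34.7% fell. SLC25A12 (aralar) and SLC25A13 (citrin) are the aspartate/glutamate carriers of the malate-aspartate shuttle. SLC25A13 was at -2.11 and -2.01 in *miR-NC* input, -2.29 and -2.32 in *miR-634* input, -1.21 and -1.23 in *miR-NC* RIP and -0.17 and -0.07 in *miR-634* RIP. Both RIP groups lay above the input, and the *miR-634* RIP arrays lay highest. RIP/input was 0.84 with *miR-NC* and 2.19 with *miR-634*, the highest of all members in the latter, and the fold change of enrichment was 1.34 (SE 0.08, adjusted p = 9.49e-05).

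SLC25A12 was at -1.61 and -1.62 in *miR-NC* input, -1.65 and -1.61 in *miR-634* input, -2.29 and -2.12 in *miR-NC* RIP and -2.23 and -2.34 in *miR-634* RIP. The 2 RIP groups overlapped, and both lay below the input. Its fold change of enrichment was -0.07 (95% interval -0.32 to 0.19, adjusted p = 0.6), whereas the interval of SLC25A13 was 1.13 to 1.56, and the difference between the 2 was not itself tested.

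SLC25A38 imports glycine for heme synthesis. Its levels were -3.24 and -3.34 in *miR-NC* input, -3.52 and -3.24 in *miR-634* input, -3.62 and -3.57 in *miR-NC* RIP and -1.79 and -1.65 in *miR-634* RIP. The *miR-634* RIP arrays stood above all other arrays, which lay within a narrow band. Enrichment was -0.31 with *miR-NC* and 1.67 with *miR-634*, and it rose by 1.97 (SE 0.15, adjusted p = 0.000198), or 3.92-fold.

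SLC25A22 is the main mitochondrial glutamate carrier. It was at 1.16 and 1.13 in *miR-NC* input, 0.56 and 0.59 in *miR-634* input, 1.02 and 1.1 in *miR-NC* RIP and 1.68 and 1.64 in *miR-634* RIP. The input fell and the RIP level rose, without overlap in either. The input fell by 0.57 (SE 0.05, adjusted p = 0.00351), the RIP level rose by 0.60 (adjusted p = 0.000162), and the fold change of enrichment was 1.17 (SE 0.07, adjusted p = 7.75e-05).

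SLC25A29 carries basic amino acids. It was at -1.24 and -1.23 in *miR-NC* input, -1.18 and -1.16 in *miR-634* input, -1.44 on both *miR-NC* RIP arrays and -0.63 and -0.56 in *miR-634* RIP. Only the *miR-634* RIP arrays lay above the input. The fold change of enrichment was 0.78 (SE 0.06, adjusted p = 0.000248), and a dimmer probe of another transcript gave 0.30.

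SLC25A15 exchanges ornithine and citrulline for the urea cycle and was the amino acid carrier that fell. Its levels were -3.17 and -3.15 in *miR-NC* input, -3.30 and -3.35 in *miR-634* input, -3.0 and -3.04 in *miR-NC* RIP and -3.79 and -3.87 in *miR-634* RIP. The *miR-634* RIP arrays lay below all others. Enrichment fell by 0.65 relative to the array's percentile (SE 0.07, adjusted p = 0.000773), a second probe gave -0.31, and spike-in scaling turned the value to 0.43.

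SLC25A44, a carrier of branched-chain amino acids, was at -0.04 and -0.06 in *miR-NC* input, 0.11 on both *miR-634* input arrays, 0.00 and 0.06 in *miR-NC* RIP and 0.34 and 0.30 in *miR-634* RIP. The RIP level rose by 0.29 (adjusted p = 0.00219), but the fold change of enrichment was 0.13 (95% interval -0.03 to 0.29, adjusted p = 0.127). SLC25A2, a second ornithine carrier, was not well above background on any array.

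The pyrimidine nucleotide carriers SLC25A33 and SLC25A36, which serve the supply of nucleotides for mitochondrial DNA and RNA, differed in sign. SLC25A36 was at 0.18 and 0.21 in *miR-NC* input, 0.08 and 0.09 in *miR-634* input, 0.14 and 0.10 in *miR-NC* RIP and 1.65 and 1.46 in *miR-634* RIP. SLC25A33 was at -1.49 and -1.52 in *miR-NC* input, -1.55 and -1.51 in *miR-634* input, -1.27 and -1.32 in *miR-NC* RIP and -2.13 and -2.18 in *miR-634* RIP. The inputs of both genes hardly moved, while the *miR-634* RIP arrays were the highest for SLC25A36 and the lowest for SLC25A33. For SLC25A36 the fold change of enrichment was 1.55 (95% interval 1.30 to 1.81, adjusted p = 0.000112), and its second probe gave 1.05. For SLC25A33 it was -0.83 (95% interval -1.0 to -0.66, adjusted p = 0.000235) and 0.25 under spike-in scaling, and the difference between the genes was not itself tested.

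The calcium-regulated carriers of ATP-Mg and phosphate, SLC25A23, SLC25A24 and SLC25A25, gave fold changes of enrichment of -0.19, 0.24 and -0.43, of which that of SLC25A25 was called, and a dimmer probe of SLC25A23 gave 0.29. SLC25A25 was at -2.40 and -2.34 in *miR-NC* input, -1.93 and -1.88 in *miR-634* input, -1.53 on both *miR-NC* RIP arrays and -1.47 and -1.51 in *miR-634* RIP. Its input groups were apart, with the *miR-634* arrays higher, while the RIP groups lay close together. The input rose by 0.47 (SE 0.05, adjusted p = 0.00475), and the RIP change was 0.04 (adjusted p = 0.501). The fall of its enrichment was not called with the authors' values, with the percentile over all probes or with normexp and quantile normalization, at values between -0.31 and -0.27, and was 0.65 under spike-in scaling.

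Among the carriers of carboxylates, phosphate and carnitine, 3 of 6 rose, 1 fell and 2 were not called, while 24.8% of all genes rose and 34.7% fell. SLC25A3 brings in the phosphate for ATP synthesis. It was at 4.81 and 4.87 in *miR-NC* input, 4.60 and 4.57 in *miR-634* input, 5.14 and 5.09 in *miR-NC* RIP and 6.09 and 6.04 in *miR-634* RIP. The *miR-634* RIP arrays were the highest and the *miR-634* input arrays the lowest, and the fold change of enrichment was 1.20 (SE 0.07, adjusted p = 7.26e-05).

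SLC25A21, the oxodicarboxylate carrier of lysine and tryptophan breakdown, was at -4.37 and -4.34 in *miR-NC* input, -4.74 and -4.67 in *miR-634* input, -4.87 and -4.81 in *miR-NC* RIP and -3.74 and -3.84 in *miR-634* RIP. Input fell and RIP rose, without overlap between the kinds of cells. It was well above background on 1 of the 2 *miR-NC* RIP arrays, so that its *miR-NC* RIP level was near the lower limit of measurement. Its fold change of enrichment was 1.40 (SE 0.08, adjusted p = 6.62e-05), and it was 0.68 after normexp and quantile normalization, still called.

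SLC25A10, the dicarboxylate carrier, rose by 0.46 (adjusted p = 0.0181), a call that was lost without *miR-NC* input array 1 (0.42), *miR-634* input array 1 (0.47) or *miR-634* input array 2 (0.45). SLC25A1, which exports citrate for lipid synthesis, fell by 0.48 relative to the array's percentile (adjusted p = 0.0127) and was at 0.61 under spike-in scaling. SLC25A11, the oxoglutarate/malate carrier, had a value of -0.26 and SLC25A20, the carnitine/acylcarnitine carrier, a value of 0.28, with neither called.

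Of the 6 measured cofactor carriers, 2 rose, 1 fell and 3 were not called, while 24.8% of all genes rose and 34.7% fell. SLC25A17, which resides in peroxisomes and carries coenzyme A, was at -0.67 and -0.73 in *miR-NC* input, -0.96 and -0.95 in *miR-634* input, -0.34 and -0.26 in *miR-NC* RIP and 0.71 and 0.70 in *miR-634* RIP. The *miR-634* RIP arrays stood above every other array. Its fold change of enrichment was 1.26 (SE 0.07, adjusted p = 6.56e-05).

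SLC25A32, the folate carrier, fell by 0.85 relative to the array's percentile (adjusted p = 0.000642) and was at 0.24 under spike-in scaling. SLC25A16, which is linked to coenzyme A, had a value of -0.59 (adjusted p = 0.0674) and 0.50 under spike-in scaling, not called in either. SLC25A51, the NAD carrier, had a value of -0.06 (95% interval -0.56 to 0.43), and a second probe of a non-coding transcript gave -0.57. SLC25A51 has the near-identical copy SLC25A52, so its signal is uncertain. SLC25A42, a coenzyme A carrier, was not well above background on either *miR-NC* RIP array. Its fold change of enrichment was 0.87 (95% interval -0.03 to 1.77, adjusted p = 0.0863). With the lowest level well above background in place of any lower *miR-NC* RIP level, its change was 1.56-fold, which was not tested.

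Both iron carriers fell relative to the array's percentile, as did 34.7% of all genes, and were above 0 under spike-in scaling. SLC25A28 (mitoferrin-2) had a RIP/input of 1.58 with *miR-NC* and 0.72 with *miR-634*, both called, and a fold change of enrichment of -0.86 (SE 0.09, adjusted p = 0.000677). SLC25A37 (mitoferrin-1, the form of red blood cell precursors) went from 0.84 to 0.14, by -0.70 (SE 0.10, adjusted p = 0.00234). The spike-in values were 0.22 and 0.38. The glutathione carriers SLC25A39 and SLC25A40 gave 0.13 and 0.41, with neither called, and SLC25A40 was not well above background on either *miR-NC* RIP array. With the lowest level well above background in place of any lower *miR-NC* RIP level, the change of SLC25A40 was 1.15-fold, which was not tested.

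Of the relatives of uncoupling proteins, SLC25A14 fell by 0.83 relative to the array's percentile (adjusted p = 0.000298, 0.25 under spike-in scaling), and SLC25A30 gave -0.97 with an SE of 0.42 (adjusted p = 0.0957) and 0.11 under spike-in scaling, not called in either. SLC25A46, an outer membrane protein of mitochondrial dynamics, fell by 0.41 (adjusted p = 0.00378). That call was lost with the authors' values and with the percentile over all probes (-0.30 each), the value was 0.67 under spike-in scaling, and a dimmer probe gave -0.72. Of the less known members, SLC25A43 rose by 0.52 (adjusted p = 0.0343), which was lost in 5 of the 8 fits that left out an array, at values between 0.42 and 0.54. These were the fits without *miR-NC* input array 1 or 2, *miR-NC* RIP array 2, *miR-634* input array 2 or *miR-634* RIP array 1. SLC25A45 gave -0.14 and SLC25A47 gave 0.39 (1.31-fold), with neither called. SLC25A47 was not well above background on either *miR-NC* RIP array. Its levels there lay above the array's lowest level well above background, so replacing lower levels left the value at 0.39. The value of SLC25A47 was 0.12 after normexp and quantile normalization.

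RIP/input in each kind of cell showed where the carriers started. In *miR-NC* cells, 10 members (27%) had a RIP level above the input, against 27.3% of all genes, and 15 (40.5%) had one below, against 43.4%. With the arrays scaled on the median gene, an alternative chosen after seeing the data, these counts were 16 and 10. The highest *miR-NC* values belonged to SLC25A45, with 1.87, and SLC25A28, with 1.58, and the lowest to SLC25A51, with -1.33, SLC25A43, with -1.25, and SLC25A46, with -1.21. In *miR-634* cells, 19 members (51.4%) were above the input, against 31.2% of all genes, and 13 (35.1%) were below, against 46.4%. The median RIP/input of the members was 0.04 with *miR-NC* and 0.18 with *miR-634*, beside -0.21 and -0.24 over all genes.

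Relative to the input, 7 members were higher in both kinds of cells and 9 were lower in both. SLC25A4, SLC25A21, SLC25A29 and SLC25A38 were lower in *miR-NC* cells and higher in *miR-634* cells, and SLC25A33 was the reverse. The shares of all genes with these patterns were not computed, so the counts cannot be set against the whole array. SLC25A36 and SLC25A22 were called in *miR-634* cells (1.47 and 1.09) and not in *miR-NC* cells, where both values were -0.08. Under spike-in scaling the calls changed, with 37 members called below the input in *miR-NC* cells, and 27 called below and 1 above in *miR-634* cells. These counts do not give the sign of each member in *miR-634* cells.

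**Figure D3:**
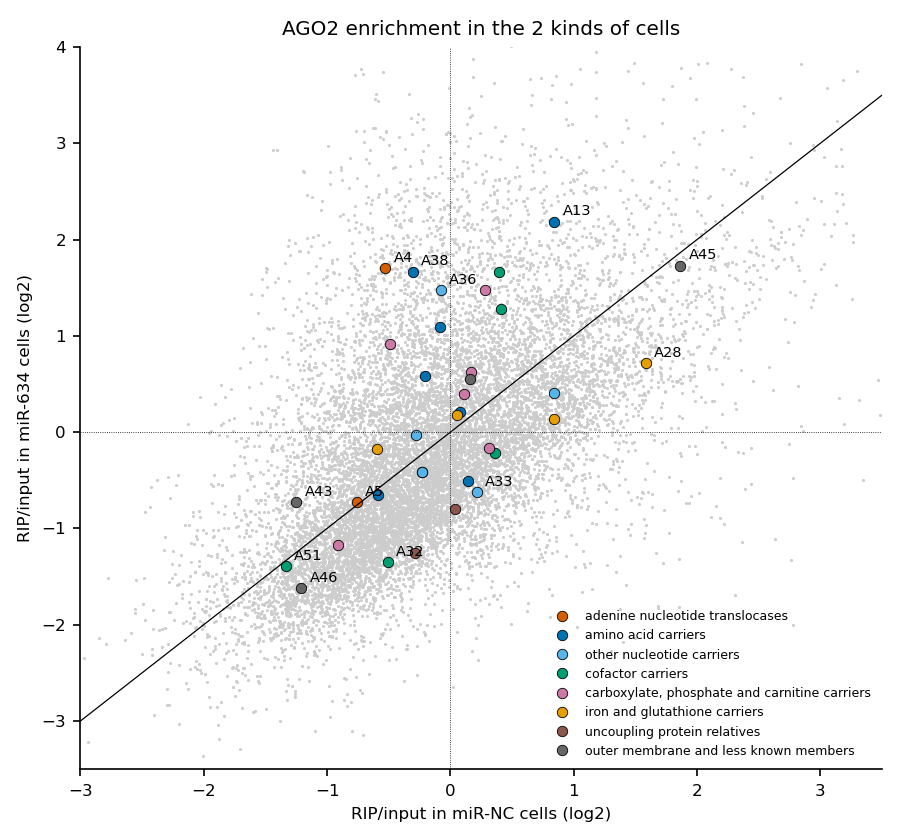
RIP/input (log2) in miR-NC cells on the x axis and miR-634 cells on the y axis for all measured genes (grey) and 36 SLC25 members (colored by role, with selected members labeled without the prefix SLC25); a few genes lie beyond the axes. Members above the diagonal gained enrichment with miR-634 on the percentile scale, up to SLC25A4 (-0.53 and 1.70), and those below it a lower one, such as SLC25A28 (1.58 and 0.72), whose change was above 0 under spike-in scaling.

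The input arrays compared the carriers' total RNA between the 2 kinds of cells. Total RNA fell for 4 members, against 7.46% of all genes, and rose for SLC25A25 alone, against 6.6% of all genes. The falls were 0.57 for SLC25A22, 0.35 for SLC25A21 (SE 0.06, adjusted p = 0.017), 0.26 for SLC25A17 (adjusted p = 0.0293) and 0.25 for SLC25A3 (adjusted p = 0.0299). SLC25A22 thus went to 0.673 of its *miR-NC* level, and the 3 others to between 0.784 and 0.841. These 4 members were among the 9 with a rise of enrichment of at least 2-fold. A fall of input raises the fold change of enrichment by its definition, and the matching share over all genes was not computed. The median input change of the members was -0.03 and that of all genes was -0.01, and 32 members were not called. The 4 falls became 1 when any 1 of the 4 input arrays was left out and 0 under spike-in scaling, where SLC25A22 was at -0.75, and the rise of SLC25A25 was lost without *miR-NC* input array 1 (0.44) or *miR-634* input array 2 (0.45). In bulk RNA, fewer cells with a transcript and less of it per cell cannot be told apart.

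The RIP arrays compared the AGO2-bound RNA. The RIP level rose for 12 members, against 28% of all genes, and fell for 10, against 39.4%, with falls relative to the array's percentile. With the percentile over all probes the counts were 18 and 7, and with spike-in scaling 28 and 0. Of the 12 members whose enrichment rose, 10 had a called rise of the RIP level, and 4 had a called fall of the input. Of the 9 whose enrichment fell, 8 had a called fall of the RIP level, and SLC25A25 had a called rise of the input. The fold change of enrichment is the RIP change minus the input change, so these counts follow in part from its definition. The matching shares over all genes were not computed. For SLC25A4, the RIP change was 2.30 and the input change 0.07 (95% interval -0.07 to 0.20), and for SLC25A38 they were 1.88 and -0.09 (95% interval -0.36 to 0.18).

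**Figure D4:**
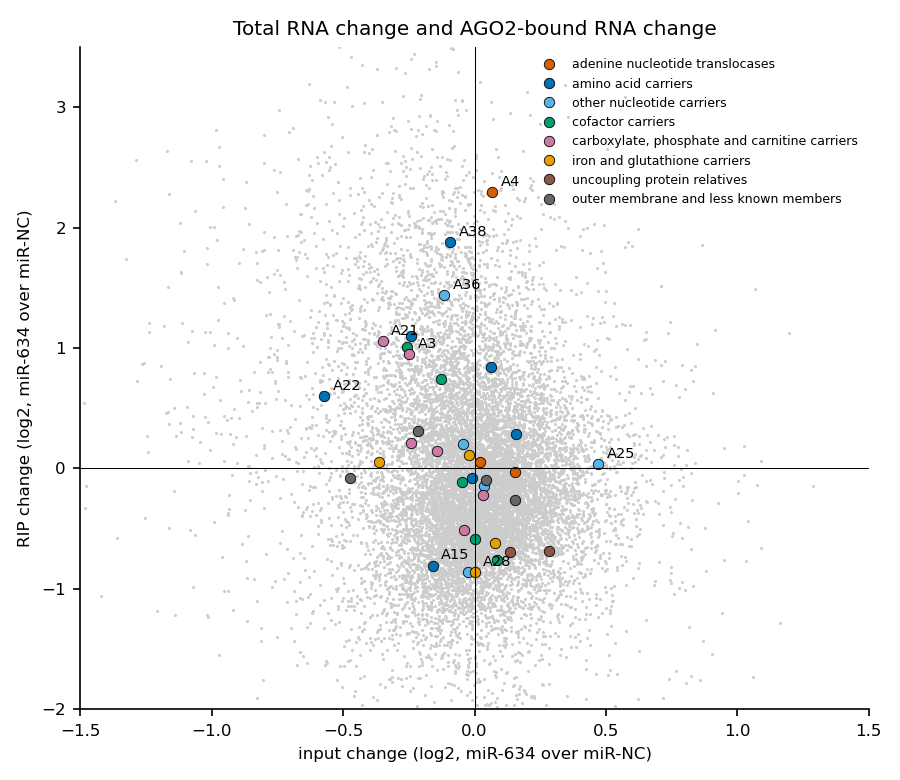
Change between miR-634 and miR-NC cells (log2) in the input (x axis, total RNA) and in the RIP (y axis, AGO2-bound RNA) for all measured genes (grey) and 36 SLC25 members (colored by role, with selected members labeled without the prefix SLC25); a few genes lie beyond the axes. Members spread further along the RIP axis (-0.86 to 2.30, percentile scale; no fall was called under spike-in scaling) than along the input axis (-0.57 to 0.47), with SLC25A22 lowest and SLC25A25 highest in the input.

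The genes that import the carriers and the relatives outside the SLC25A symbols were measured beside them. Of 12 genes of carrier import, all measured, enrichment rose for 5, fell for 3 and was not called for 4, with a median of -0.06. Over all genes, 24.8% rose and 34.7% fell, with a median of -0.18. The rises of TIMM8A, a chaperone of the intermembrane space, and AGK, a subunit of the TIM22 complex, were 2.21 and 2.05, and the total RNA of AGK fell by 1.19 (adjusted p = 0.0025). The fall of TOMM20, an outer membrane receptor, was -1.53 relative to the array's percentile. Of the relatives without an SLC25A symbol, MTCH2, an outer membrane insertase, rose by 0.77, UCP3, an uncoupling protein, fell by 1.52 relative to the percentile, MTCH1 had a value of 0.17 and was not called, and UCP1 and UCP2 were not measured. Among 17 other transporters of the mitochondrial membranes, 4 rose, 6 fell and 7 were not called, near the shares of all genes, with a median of -0.31. The porins VDAC1 and VDAC2 rose by 1.24 and 1.21 and the ABC transporter ABCB8 by 2.20, while the calcium uniporter MCU fell by 1.18 and its regulator MICU2 by 1.63, relative to the percentile.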

How the data were processed

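The authors deposited, for each of the 8 arrays, the intensity of every spot from Agilent Feature Extraction (9.1 in the submitters' processing notes, 12.0.1.1 in the file headers), with local background subtracted and no normalization between arrays. They also deposited processed log2 values from GeneSpring, which followed the log2 intensity scaled by array on the percentile of all probes and centered per probe (r = 0.99994 at the lowest), and which served as an alternative.

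After control and outlier spots had been removed, the spots of each probe were averaged before log2 was applied. Scaling used the 75th percentile of each array over the 16813 of 58201 probes (28.9%) that were well above background throughout. Of 33080 probes with a RefSeq accession, 31104 matched 1 symbol in the RefSeq gene table (GRCh38.p14). Other probes of 8 members also passed and were given where they differed. No spot was saturated. For a member not well above background on an arm, levels under the array's lowest level well above background were also replaced by that level. That level came from all probes of the array and is not a detection limit of the member's own probe.

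Tests were run with limma 3.58.1 under R 4.3.3 (a fit of 4 group means with eBayes, two-sided, Benjamini-Hochberg adjustment over all measured genes, threshold 0.05), tested on simulated data. Array values were given for the adenine nucleotide translocases, the amino acid carriers, members with a called change of enrichment of at least 2-fold and those with the 3 largest called rises and falls of input. SLC25A33 was added after its values were seen, and so were the members of other gene lists given with values. The members and lists were chosen with earlier results of these data known. All 8 arrays lay on 1 slide in 1 scan, with input in row 1 and RIP in row 2, so position and group cannot be told apart. The alternatives were other normalizations and filters, the authors' values, the mean of the probes, a replicate block, each array left out and the methods' t-test. Python 3.11.15 with pandas 2.3.3 and matplotlib 3.10.9 wrote the tables and plots. Of the measured members, 1 enters the counts and medians but is not reported here by name or in the plots.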

Additional observations from a re-analysis of the deposited data

Results flagged for a closer look

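For 5 members, RIP/input was called in opposite directions in the 2 kinds of cells, and the difference itself was tested as the fold change of enrichment (limma, log2). On the 75th percentile scale, SLC25A4 (2.23), SLC25A38 (1.97), SLC25A21 (1.40) and SLC25A29 (0.78) went from below the input to above it. SLC25A33 (-0.83) went from above to below, and its value was 0.25 under spike-in scaling. Calls against the input depend on the scale. Under spike-in scaling, 37 members were called below the input in *miR-NC* cells, and 27 below and 1 above in *miR-634* cells. These counts do not show on which side of the input each of the 5 members lay in *miR-634* cells.

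SLC25A26, the carrier of S-adenosylmethionine, was outside the comparisons because its probe was well above background on only 1 of the 4 input arrays. It was well above background on both *miR-634* RIP arrays, at -4.23 and -4.66, and on neither *miR-NC* RIP array. Dim levels under the array's lowest level well above background were replaced by that level. The level of SLC25A26 in the *miR-634* RIP was then 1.72-fold that in the *miR-NC* RIP and 7.11-fold that in the *miR-634* input, which was not tested.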

How the results depend on the processing

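Scaling on the spike-in probes moved the median fold change of enrichment of all genes from -0.18 to 0.91 and changed the counts of members most: 28 higher and 0 lower for the fold change of enrichment, 0 and 37 for RIP/input with *miR-NC*, 1 and 27 with *miR-634*, 0 and 0 for the input, and 28 and 0 for the RIP change. The log2 fold change of enrichment changed sign under it for SLC25A1 (0.61), SLC25A6 (0.90), SLC25A11 (0.83), SLC25A12 (1.02), SLC25A14 (0.25), SLC25A15 (0.43), SLC25A23 (0.90), SLC25A25 (0.65), SLC25A28 (0.22), SLC25A32 (0.24), SLC25A33 (0.25), SLC25A37 (0.38), SLC25A45 (0.95), SLC25A46 (0.67) and SLC25A51 (1.02), and for SLC25A16 (0.50) and SLC25A30 (0.11), which were called in neither scaling. The cause was not tested. The median-gene scaling, chosen after seeing the data, gave 16 members above the input in *miR-NC* cells. With probes well above background on all 8 arrays, 2 members rose in the input. The 4 falls of input became 2 with quantile normalization, with or without normexp, and 1 with the percentile over all probes, with the authors' values and with no filter on dim probes.

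When each array was left out in turn, the members called higher and lower ranged from 10 to 14 and from 9 to 11 for the fold change of enrichment, from 7 to 12 and from 11 to 14 for RIP/input with *miR-NC*, from 17 to 19 and from 13 to 14 with *miR-634*, from 0 to 1 and from 1 to 5 for the input, and from 11 to 13 and from 8 to 11 for the RIP change. Arrays with the same number did not deviate together (correlations from -0.04 to 0.05), and a replicate block gave 12 higher and 10 lower for the fold change of enrichment and 2 falls of input. The 9 members with a rise of at least 2-fold were called higher in each of the settings in which they were measured. The methods' t-test called 12 members higher and 9 lower unadjusted and 10 and 8 after Benjamini-Hochberg adjustment. A slide or scan block could not be fitted, because all arrays shared 1 slide and 1 scan. Signal over background limits SLC25A40, SLC25A42 and SLC25A47, whose changes of enrichment rest on *miR-NC* RIP levels not well above background and were not called in the main fit.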
